A study of Mus musculus with 18 samples.

Results

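Expression of 10 genes of the creatine, calcium and glycerol cycles was followed across 3 adipose tissues of the mouse. The genes were chosen by name, as the rows of the count table with the symbols Gatm, Gamt, Slc6a8, Ckb, Ckmt1, Ckmt2, Alpl, Atp2a2, Ryr2 and Gk, and all 10 were found among 54347 rows. Polyadenylated RNA was sequenced from interscapular brown (iBAT), inguinal white (iWAT) and epididymal white (eWAT) adipose tissue of 6 mice at 12 weeks of age, which gave 18 libraries in 6 groups of 3. The 3 wild type (wt) mice were litter mates of the 3 ΔGm15551 (ko) mice. The ko mice carry a germline CRISPR/Cas9 deletion of exon 1 of the long noncoding RNA gene Gm15551 in every tissue, in a single C57BL/6N line backcrossed to wild type animals. All mice were fed chow, and each gave a library of every tissue. No group was treated or exposed to cold, so these are levels of unchallenged tissue.

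Futile cycles spend ATP without net work and so release heat, and they have been described in brown and beige fat as ways to make heat without the uncoupling protein Ucp1. In the creatine cycle, creatine made by Gatm and Gamt or imported by Slc6a8 is phosphorylated by creatine kinases (Ckb in the cytosol and mitochondria of fat, Ckmt1 and Ckmt2 in mitochondria), and the phosphatase encoded by Alpl hydrolyses phosphocreatine. In the calcium cycle the pump SERCA2 (Atp2a2) moves calcium into the endoplasmic reticulum and the ryanodine receptor Ryr2 lets it out, while in the glycerol cycle glycerol kinase (Gk) returns the glycerol freed by lipolysis to triglyceride synthesis.

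The genes were measured at depths of 14997901 to 34389586 estimated counts per library, and 3 counts corresponded to 0.0726 to 0.234 CPM (library counts per 1e6, scaled by the trimmed mean of M values, TMM). Gm15551 held 40 to 316 counts in the wt libraries and at most 4 in the ko libraries. The brown tissue matched its label, since the summed level of 10 brown adipocyte markers was 7417 to 12889 CPM in iBAT, 51.3 to 373 CPM in iWAT and 38.8 to 75.5 CPM in eWAT. The sum of 6 markers common to fat cells was 9475 CPM in iWAT wt 3, 11565 CPM in eWAT ko 3, 13583 CPM in iWAT ko 2 and 18691 to 27358 CPM in the other libraries. Genes of the mitochondrial genome took 22.9% to 27.0% of the counts in iBAT and 3.77% to 9.64% in the white tissues. The libraries labelled iWAT ko 1, iWAT wt 3, iWAT ko 2 and eWAT ko 3 stood apart by markers of other tissues. Skeletal muscle markers summed to 4011 CPM in iWAT ko 1 and to 24.1 to 62.6 CPM in the other iWAT libraries, with 13 of 14 markers highest there and Myh7 at 0. Lymph node markers summed to 1522 CPM in iWAT wt 3, where all 12 were highest, to 620.4 CPM in iWAT ko 2 and to 8.35 to 26.7 CPM in the other 4. Epididymis markers summed to 5095 CPM in eWAT ko 3, where 8 of 11 were highest and Lcn9 was at 0, to 35.4 CPM in eWAT wt 1 and to 0.214 to 2.76 CPM in the other 4, and all 10 testis markers were also highest in eWAT ko 3. Smaller shifts were seen in eWAT ko 2, where all 5 smooth muscle markers were highest (884.6 CPM in sum against 162.9 to 313 CPM), in iBAT wt 2, where all 6 macrophage markers were the highest of iBAT (136 CPM in sum against 52.1 to 97.0 CPM), and in iBAT wt 3, where 10 of 14 skeletal muscle markers were the highest of iBAT although their sum was 87.9 CPM against 67.4 to 87.6 CPM.

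The 10 genes lie on 7 chromosomes of GRCm38 (GENCODE M21), all protein coding, and the counts are per gene over all exons, so that transcripts of a gene were not told apart. Gk spans positions 85701937 to 85776819 of chromosome X on the minus strand and Slc6a8 positions 73673150 to 73682502 of the same chromosome on the plus strand. Alpl spans 137741733 to 137796384 of chromosome 4, Gamt 80258151 to 80261012 of chromosome 10, Ckb 111669361 to 111672338 of chromosome 12 and Gatm 122594467 to 122611303 of chromosome 2, all on the minus strand. Promoters of 8 of the 10 genes were found in RefSeq (GRCm38.p6), and those of the genes with the clearest tissue differences are shown, so that the start regions of the genes described next can be read beside their levels. Each is the 250 bases before a transcript start, 5′ to 3′ on the strand of the gene, with motif letters in capitals. Letters were searched on both strands. The GC box was read as GGGCGG, the box named for its letters as CCAAT and the TATA box as TATAAA. The cyclic AMP response element was read as TGACGTCA, the element of oestrogen-related receptors as TCAAGGTCA, and the direct repeat bound by PPAR and RXR (DR1) as AGGTCA repeated after 1 base, letters that also end the element before it. They stood in 32.7%, 33.8%, 12.4%, 1.55%, 0.387% and 0.0335% of 32851 mouse promoters of the same length. Gk and Alpl, both higher in iBAT, had these promoters, Alpl with 2 starts 29.9 kb apart of which the first is the upstream one:
Gk, chrX:85776820-85777069, minus strand: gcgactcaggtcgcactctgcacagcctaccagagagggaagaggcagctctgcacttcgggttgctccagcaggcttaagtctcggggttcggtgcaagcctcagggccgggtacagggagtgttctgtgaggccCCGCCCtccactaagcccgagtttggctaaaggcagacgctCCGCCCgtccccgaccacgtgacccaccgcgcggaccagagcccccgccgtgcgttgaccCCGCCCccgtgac
Alpl, upstream start, chr4:137796385-137796634, minus strand: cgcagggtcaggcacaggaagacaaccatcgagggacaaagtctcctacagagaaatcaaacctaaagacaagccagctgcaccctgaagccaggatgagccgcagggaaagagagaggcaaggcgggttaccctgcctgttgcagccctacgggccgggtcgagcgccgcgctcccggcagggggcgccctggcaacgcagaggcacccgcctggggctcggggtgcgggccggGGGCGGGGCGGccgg
Alpl, downstream start, chr4:137766476-137766725, minus strand: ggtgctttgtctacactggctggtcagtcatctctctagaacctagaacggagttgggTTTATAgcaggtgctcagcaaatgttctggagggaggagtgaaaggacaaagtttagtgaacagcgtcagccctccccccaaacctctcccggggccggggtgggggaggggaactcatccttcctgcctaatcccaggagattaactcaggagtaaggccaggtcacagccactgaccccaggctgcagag
Gatm and Gamt, both lower in iBAT than in iWAT, and Ckb, lower in iBAT than in eWAT, had these:
Gatm, chr2:122611278-122611527, minus strand: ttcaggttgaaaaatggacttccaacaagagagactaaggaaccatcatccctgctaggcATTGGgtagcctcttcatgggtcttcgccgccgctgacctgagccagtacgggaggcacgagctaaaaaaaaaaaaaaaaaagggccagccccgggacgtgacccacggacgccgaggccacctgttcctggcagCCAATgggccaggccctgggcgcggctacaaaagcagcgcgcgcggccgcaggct
Gamt, chr10:80261013-80261262, minus strand: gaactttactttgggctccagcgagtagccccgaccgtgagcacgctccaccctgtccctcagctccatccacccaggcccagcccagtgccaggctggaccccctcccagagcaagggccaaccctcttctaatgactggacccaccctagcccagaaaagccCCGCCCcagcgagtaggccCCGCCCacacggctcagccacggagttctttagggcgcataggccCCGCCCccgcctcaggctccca
Ckb, chr12:111672339-111672588, minus strand: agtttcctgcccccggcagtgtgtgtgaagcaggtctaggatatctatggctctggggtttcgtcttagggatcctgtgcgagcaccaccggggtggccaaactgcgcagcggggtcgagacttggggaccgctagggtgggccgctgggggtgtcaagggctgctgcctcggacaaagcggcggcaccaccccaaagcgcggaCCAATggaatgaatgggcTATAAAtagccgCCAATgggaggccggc
Gk and Gamt each held 3 GC boxes, the upstream Alpl start 2 overlapping ones, Gatm 2 CCAAT boxes and Ckb 2 CCAAT boxes around 1 TATA box, while the downstream Alpl start held 1 TATA box. None of the 6 windows held the letters of the other motifs, which says nothing about binding of the factors.

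Between iBAT and iWAT, 6 of the 9 genes tested changed (edgeR quasi-likelihood test, adjusted p under 0.05), 4 higher and 2 lower in iBAT. Over all 18728 genes tested 54.3% were called, 24% higher and 30.3% lower. The median log2 fold change was 0.19 over the 9 genes and -0.14 over all genes. Between iBAT and eWAT, 6 of 9 were called, 3 in each direction, against 54.6% of all genes (24.4% higher and 30.2% lower), with medians of 0.12 and -0.17. Between iWAT and eWAT, 2 of 9 were called, 1 in each direction, against 10.2% of all genes (5.7% higher and 4.5% lower). The libraries of both tissues did not overlap in CPM for 5 of 9 genes between iBAT and iWAT (34.6% of all genes), 3 of 9 between iBAT and eWAT (37.3%) and 0 of 9 between iWAT and eWAT (4.62%). Ckmt2 did not pass the filter on low counts and was not tested, and Ckmt1, counted among the 3 lower against eWAT, passed it only through white libraries. In bulk tissue, fewer cells of a type and less RNA per cell cannot be told apart.

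**Figure D1:**
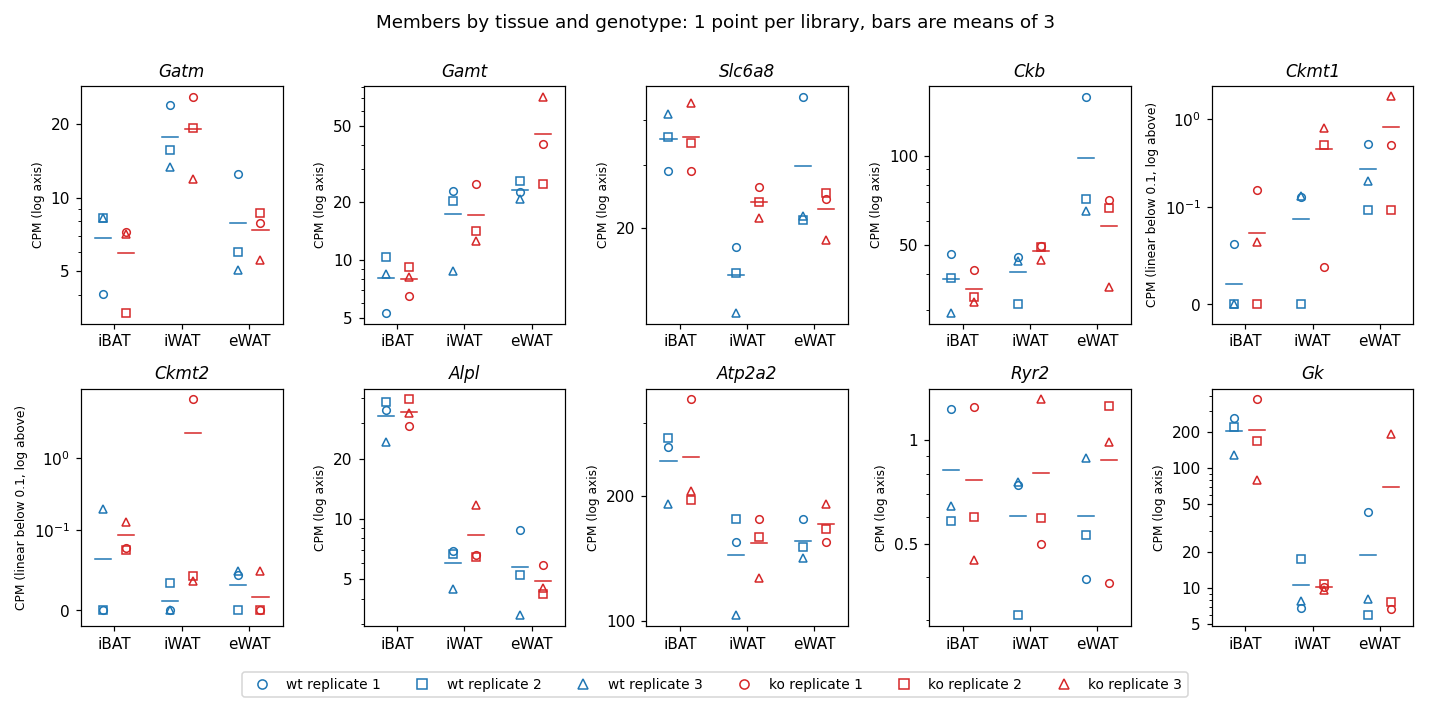
Level of each of the 10 genes in CPM (y axis, logarithmic, or linear below 0.1 CPM for Ckmt1 and Ckmt2) by tissue (x axis), with 1 point per library, wt in blue, ko in red, a symbol for each replicate number and a bar at the mean of 3. Alpl and Gk sit highest in iBAT, Gatm in iWAT, Gamt and Ckb in eWAT, and single libraries stand off for Gk and Gamt (eWAT ko 3), Ckb and Slc6a8 (eWAT wt 1) and Ckmt2 (iWAT ko 1).

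Both enzymes of creatine synthesis were lower in brown than in inguinal fat. Gatm, the amidinotransferase that makes guanidinoacetate in the first step, was measured at 4.01, 8.27 and 8.25 CPM in iBAT of wt and 7.26, 3.37 and 7.13 CPM in iBAT of ko replicates 1, 2 and 3. In iWAT it was at 24.1, 15.7 and 13.4 CPM in wt and 26.0, 19.3 and 12.0 CPM in ko, and in eWAT at 12.5, 6.00 and 5.07 CPM in wt and 7.91, 8.66 and 5.58 CPM in ko. All 6 iWAT values lay above all 6 iBAT values, while iWAT ko 3 and eWAT wt 1 overlapped, although iWAT was above eWAT in 6 of 6 mice. The log2 fold change was -1.53 ± 0.29 (SE) between iBAT and iWAT (adjusted p = 0.000272) and 1.27 ± 0.28 between iWAT and eWAT (adjusted p = 0.00970), or 1.06 (adjusted p = 0.0580) without the 4 libraries that stood apart. Between iBAT and eWAT it was -0.26 ± 0.28 (95% interval -0.85 to 0.34, adjusted p = 0.455). The iWAT libraries with the highest Gatm, wt 1 and ko 1, also had the highest sums of 8 nerve and Schwann cell markers, 858 and 853 CPM against 354 to 606 CPM in the other iWAT libraries, 161 to 313 CPM in iBAT and 185 to 223 CPM in eWAT. The part of these cells in the Gatm level was not tested. The genes most like Gatm over the 18 libraries were Fxyd6 (Pearson r = 0.90), Slc6a7 (r = 0.89) and Dhh (r = 0.87), as a description.

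Gamt, the methyltransferase that completes creatine, was at 5.31, 10.4 and 8.44 CPM in iBAT of wt and 6.48, 9.22 and 8.15 CPM in iBAT of ko. In iWAT it was at 22.9, 20.3 and 8.74 CPM in wt and 25.0, 14.1 and 12.6 CPM in ko. In eWAT it was at 22.7, 26.0 and 20.8 CPM in wt and 40.2, 25.0 and 71.3 CPM in ko. All eWAT values exceeded all iBAT values, and iWAT wt 3, one of the libraries with lymph node markers, was the only iWAT library within the iBAT range. Gamt was lower in iBAT than in iWAT by a log2 fold change of -1.11 ± 0.31 (adjusted p = 0.00577) and than in eWAT by -2.05 ± 0.32 (adjusted p = 3.70e-05). The difference of -0.94 ± 0.30 between iWAT and eWAT did not pass (adjusted p = 0.0585), and it was -0.52 (adjusted p = 0.238) without the 4 libraries that stood apart. It passed with DESeq2 (-0.94, adjusted p = 0.0223) and with totals without mitochondrial genes (-1.02, adjusted p = 0.0416). Markers of other cells differed between the same tissues. The 6 mesothelium markers summed to 4.01 to 6.87 CPM in iBAT (3 to 5 of them at 0 in each library), 3.11 to 54.7 CPM in iWAT and 74.0 to 136 CPM in eWAT, and 5 of 6 were called lower in iBAT than in eWAT. Markers near 0 in iBAT passed the filter on low counts through other tissues. Their lower calls were favoured by the filter and are given as a description. The 6 macrophage markers, all called lower in iBAT than in each white tissue, summed to 52.1 to 136 CPM in iBAT, 240 to 1479 CPM in iWAT (highest in wt 3 and ko 2) and 138 to 538 CPM in eWAT. Their part in the Gamt level was not tested.

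Slc6a8, the plasma membrane creatine transporter, moved the other way from the synthesis enzymes between iBAT and iWAT. It was at 28.8, 36.0 and 41.8 CPM in wt and 28.8, 34.5 and 44.7 CPM in ko iBAT, and at 17.6, 14.96 and 11.5 CPM in wt and 25.9, 23.6 and 21.3 CPM in ko iWAT. In eWAT it was at 46.6, 21.0 and 21.5 CPM in wt and 24.04, 25.1 and 18.4 CPM in ko. The iBAT and iWAT values did not overlap, whereas eWAT wt 1 was higher than any iBAT library and the other 5 eWAT libraries were lower than all of them. The log2 fold change between iBAT and iWAT was 0.91 ± 0.23 (adjusted p = 0.00311). Between iBAT and eWAT it was 0.45 ± 0.23 (95% interval -0.04 to 0.93, adjusted p = 0.108), and it was called without wt replicate 1 (0.76, adjusted p = 0.00445), with voom (0.60, adjusted p = 0.00117), in ko libraries only (0.69, adjusted p = 0.0269) and without the 4 libraries that stood apart and eWAT wt 1 (0.64, adjusted p = 0.000975). With totals without mitochondrial genes, Slc6a8 lost its call against iWAT and its value against eWAT changed sign, as given with Atp2a2 below.

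**Figure D2:**
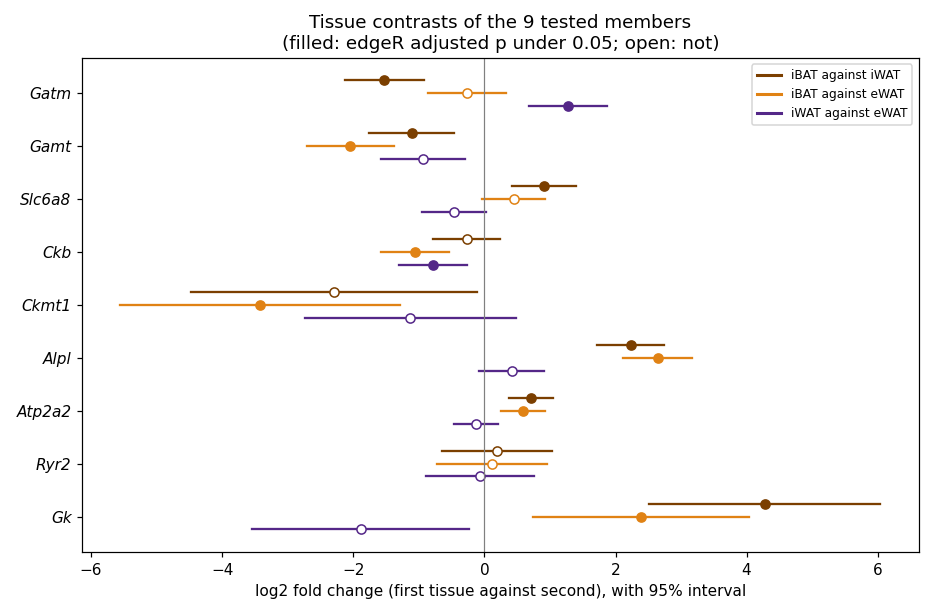
Log2 fold change (x axis) of the 9 tested genes (y axis) for iBAT against iWAT (brown), iBAT against eWAT (orange) and iWAT against eWAT (purple), with 95% intervals, filled where the edgeR adjusted p is under 0.05. Alpl and Gk lie furthest to the right in both iBAT contrasts, Gatm and Gamt lie to the left against iWAT, and Ryr2 lies at 0.19 or less with intervals that span 0.

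Among the creatine kinases Ckb carried nearly all of the message. Ckb was at 46.6, 38.6 and 29.4 CPM in wt and 41.1, 33.2 and 32.0 CPM in ko iBAT, and at 45.6, 31.6 and 44.1 CPM in wt and 49.7, 49.2 and 44.3 CPM in ko iWAT. In eWAT it was at 158.7, 71.6 and 65.0 CPM in wt and 71.1, 66.6 and 36.1 CPM in ko. Ckb was thus lower in iBAT than in eWAT in 6 of 6 mice, though eWAT ko 3 fell within the iBAT range. Its log2 fold change was -1.06 ± 0.25 between iBAT and eWAT (adjusted p = 0.00159) and -0.27 ± 0.24 between iBAT and iWAT (95% interval -0.79 to 0.24, adjusted p = 0.362). Between iWAT and eWAT it was -0.79 ± 0.25, which just passed (adjusted p = 0.04998) and no longer did without any of 5 of the 6 mice (log2 fold change from -0.86 to -0.51, adjusted p from 0.0918 to 0.147). Without eWAT wt 1 and eWAT ko 3 the eWAT mean fell from 78.2 ± 41.6 CPM (SD, n = 6) to 68.6 ± 3.25 CPM (SD, n = 4).

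The mitochondrial creatine kinases were near the limit of detection. Ckmt1, the ubiquitous form, held 0 to 2 counts in the iBAT libraries, which sum to 4 counts over all 6. In iWAT it held 4, 0 and 4 counts in wt and 1, 12 and 22 counts in ko, and in eWAT 12, 2 and 4 counts in wt and 12, 4 and 37 counts in ko, the last in the library with epididymis markers. Ckmt1 passed the filter on low counts only through white libraries, so a lower call in iBAT was favoured by the filter and is given as a description. The log2 fold change was -3.42 ± 1.01 between iBAT and eWAT (adjusted p = 0.00873), and it was not called without ko replicate 3 (-2.71, adjusted p = 0.0561), with voom (-1.52, adjusted p = 0.105), without the 4 libraries that stood apart and eWAT wt 1 (-2.23, adjusted p = 0.0784) or in ko libraries only (-3.35, adjusted p = 0.109). Between iBAT and iWAT it was -2.29 ± 1.03 (adjusted p = 0.0708), and -3.03 (adjusted p = 0.0479) without ko replicate 1. It was also called lower against iWAT with totals without mitochondrial genes. Ckmt2, the sarcomeric form, held 0 to 3 counts in 17 libraries and 169 counts (6.51 CPM) in iWAT ko 1, the library with skeletal muscle markers, where the muscle creatine kinase Ckm stood at 493 CPM against 0 to 2.96 CPM elsewhere. Per exon length, Ckb made up 89.9% to 100% of the 4 creatine kinases in iBAT, 93.6% to 99.8% in eWAT and 97.8% to 99.6% in the iWAT libraries other than ko 1, where its share was 8.99%. The lowest iBAT share was that of wt 3, with Ckm at 8.99%, and the other 5 iBAT libraries held 96.3% or more of Ckb.

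Alpl, the tissue-nonspecific alkaline phosphatase, stood higher in brown fat than in both white tissues. It was at 35.2, 38.3 and 24.3 CPM in wt and 29.0, 39.6 and 33.9 CPM in ko iBAT. In iWAT it was at 6.93, 6.69 and 4.47 CPM in wt and 6.59, 6.44 and 11.8 CPM in ko, and in eWAT at 8.77, 5.22 and 3.30 CPM in wt and 5.90, 4.23 and 4.54 CPM in ko. The lowest iBAT library was above the highest white library, and the white tissues overlapped. The log2 fold change was 2.23 ± 0.24 against iWAT (adjusted p = 9.94e-07, a 4.69-fold level) and 2.64 ± 0.25 against eWAT (adjusted p = 1.29e-07, a 6.24-fold level), and between the white tissues it was 0.41 ± 0.24 (adjusted p = 0.289). With voom the last was called (0.65, adjusted p = 0.0384), and also without the 4 libraries that stood apart and eWAT wt 1 (0.89, adjusted p = 0.0211). The genes whose levels most resembled Alpl over the 18 libraries were Pgap4 (r = 0.98), Gm35853 (r = 0.97) and Ddo (r = 0.97). These r values across 3 tissues mainly describe a shared tissue difference.

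Of 13 related genes, namely other phosphatases and kinases, transporters of the Slc6 family, mitochondrial adenine nucleotide and phosphate carriers and others, 10 were tested, and 6 were higher and 3 lower in iBAT than in iWAT, with the same counts against eWAT, where 54.3% and 54.6% of all genes were called (24% and 24.4% higher, 30.3% and 30.2% lower). Phospho1, a phosphatase that releases choline and phosphate from phosphocholine, was at 461.7 to 855.9 CPM in iBAT and at 4.31 to 23.8 CPM in the white tissues, with log2 fold changes of 5.37 ± 0.36 (adjusted p = 5.27e-09) and 6.31 ± 0.38 (adjusted p = 9.29e-10). The adenine nucleotide carriers Slc25a4 (log2 fold change 1.41 ± 0.15) and Slc25a5 (1.13 ± 0.15) were also higher in iBAT than in iWAT. Slc6a13, a GABA and taurine transporter, was lower in iBAT by -4.69 ± 0.61 against iWAT and -6.47 ± 0.64 against eWAT, and Slc6a12, a betaine transporter, by -1.87 ± 0.57 and -1.48 ± 0.58. Nudt7, a coenzyme A hydrolase of peroxisomes, was higher in iBAT than in eWAT (2.06 ± 0.24). Slc6a6, the taurine transporter, was higher (0.80 ± 0.23) and Slc6a13 lower (-1.77 ± 0.48) in iWAT than in eWAT. The median log2 fold change of the 10 tested genes was 0.58 against iWAT and 1.31 against eWAT.

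Atp2a2, which encodes the SERCA2 calcium pump, was the most abundant of the 10 genes per length of merged exons in iBAT and iWAT. It was at 261.6, 276.0 and 190.7 CPM in wt and 341.3, 195.1 and 205.7 CPM in ko iBAT. In iWAT it was at 154.6, 175.3 and 103.0 CPM in wt and 176.1, 159.4 and 126.7 CPM in ko, and in eWAT at 175.7, 150.1 and 141.6 CPM in wt and 154.6, 166.3 and 190.6 CPM in ko. The iBAT values lay above those of both white tissues, though the lowest iBAT library (wt 3) and the highest eWAT library (ko 3) nearly met. The log2 fold change was 0.72 ± 0.16 against iWAT (adjusted p = 0.00112) and 0.59 ± 0.16 against eWAT (adjusted p = 0.00475), and -0.13 ± 0.16 between iWAT and eWAT (95% interval -0.46 to 0.20, adjusted p = 0.661). With 3 mice, Atp2a2 was not called against eWAT in wt libraries only (0.64, adjusted p = 0.0521) or ko libraries only (0.55, adjusted p = 0.113), nor against iWAT in ko libraries only (0.70, adjusted p = 0.0580). With libraries scaled by their totals without mitochondrial genes in place of TMM, a setting added after seeing the data, the median of all genes tested moved from -0.14 to -0.63 against iWAT and from -0.17 to -0.68 against eWAT. Atp2a2 was then at 0.24 (adjusted p = 0.139) and 0.06 (adjusted p = 0.699), so that its higher level in iBAT held relative to other genes but not on this scale. Slc6a8 was then at 0.45 against iWAT (adjusted p = 0.112) and turned to -0.06 against eWAT (adjusted p = 0.845). Alpl, Gk, Gatm and Gamt were also called against iWAT on this scale, with Alpl at 1.75, Gk at 3.78, Gatm at -1.99 and Gamt at -1.55. Ckb (-0.77, adjusted p = 0.0129) and Ckmt1 were called lower against iWAT and Gatm against eWAT (-0.77, adjusted p = 0.0253) on this scale. Gk lost its call against eWAT (1.76, adjusted p = 0.0574). On this scale 18.2% of the genes called between iBAT and iWAT were higher in iBAT, against 44.2% with TMM, and against eWAT 19.4% and 44.7%. Of the 9 tested genes, 2 were then called higher and 4 lower in iBAT against iWAT, and 1 higher and 4 lower against eWAT.

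Among the 3 SERCA genes, Atp2a2 held 82.3% to 92.7% per exon length in iBAT, 68.1% to 87.5% in eWAT and 10.3% to 83.2% in iWAT. The lowest iWAT share was that of ko 1, where the fast muscle pump Atp2a1 stood at 854 CPM, and the next that of wt 3, where Atp2a3, a pump of blood and endothelial cells, stood at 163 CPM. The Atp2a2 share was higher in iBAT than in iWAT in 6 of 6 mice (exact sign-flip test, two-sided, p = 0.03125, the smallest p that 6 mice allow, and 0.0938 after adjustment over 12 share tests). The lowest iBAT shares were 82.3% in wt 3 and 84.5% in ko 3. Atp2a3 itself was lower in iBAT than in iWAT (log2 fold change -1.35 ± 0.38, adjusted p = 0.00622). Its iWAT mean was 71.9 CPM without ko 1 (29.9 to 163 CPM, n = 5). Without ko 1 and the libraries with lymph node markers, ko 2 and wt 3, it was 35.1 CPM (29.9 to 42.2 CPM, n = 3). The part of lymph node cells in the contrast was not tested. Pln, which inhibits SERCA2, was at 0.66 to 2.88 CPM in all 18 libraries and was not called between tissues, and Sln, the other inhibitor of SERCA pumps, was at 0.13 CPM or less.

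**Figure D3:**
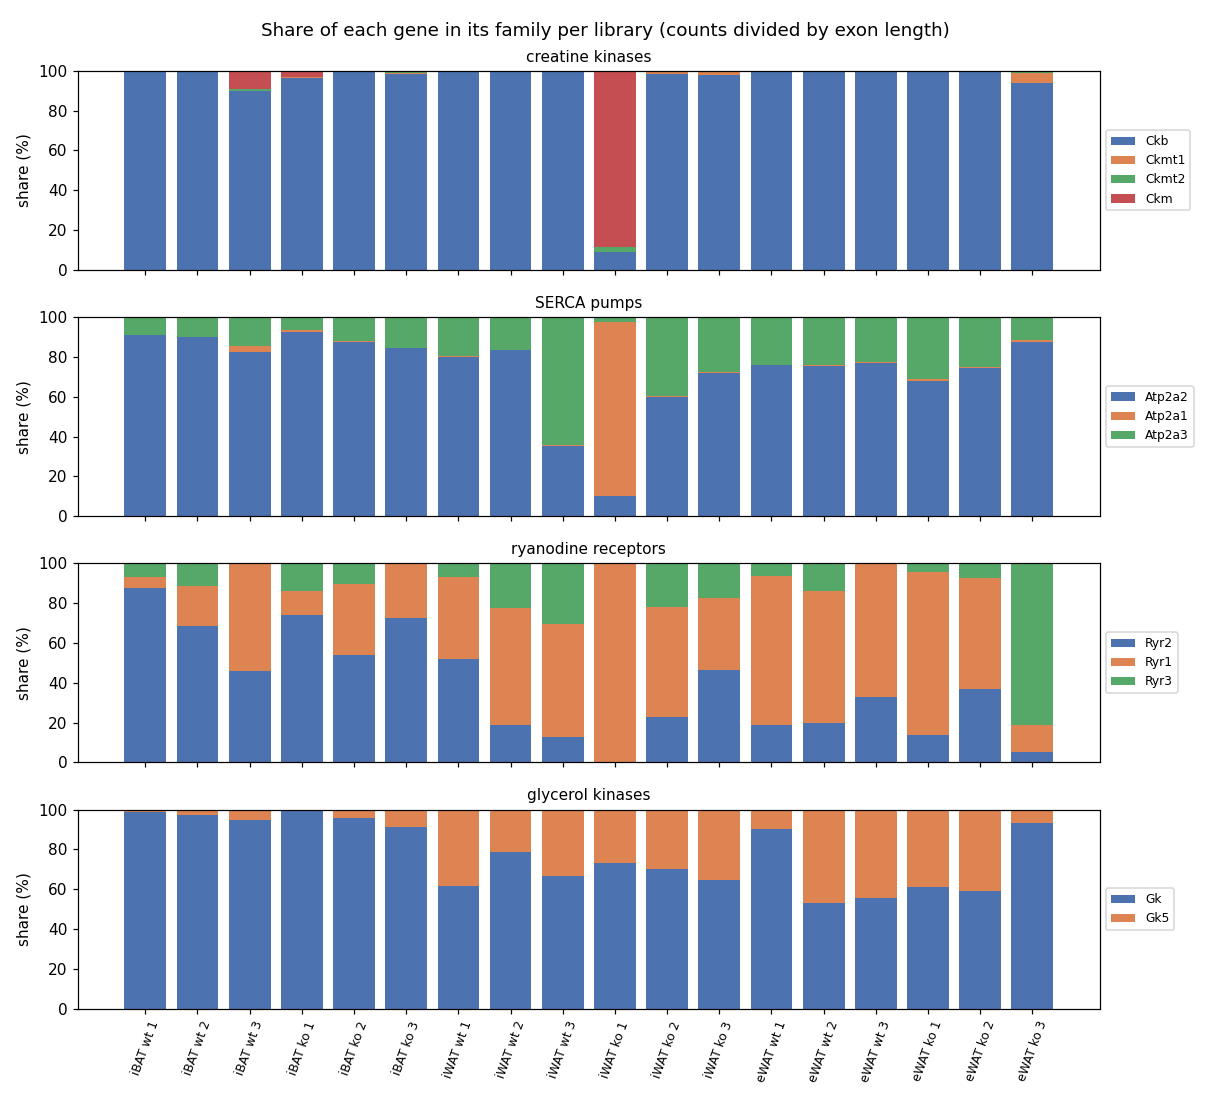
Share in percent (y axis) of each gene in its family, from counts divided by exon length, in each of the 18 libraries (x axis), for creatine kinases, SERCA pumps, ryanodine receptors and glycerol kinases. Ckb, Atp2a2 and Gk make up most of their families, except in iWAT ko 1 for Ckb (8.99%) and in iWAT ko 1 and wt 3 for Atp2a2. The Ryr2 share is higher in iBAT than in each white tissue within 6 of 6 mice, though the ranges of iBAT and iWAT overlap.

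Ryr2, the ryanodine receptor of heart muscle, was low in every tissue, with 7 to 52 counts per library. Its levels were 0.449 to 1.25 CPM in iBAT, 0.310 to 1.32 CPM in iWAT and 0.385 to 1.26 CPM in eWAT, with medians of 0.622, 0.671 and 0.709 CPM. The 3 ranges overlapped almost fully. Log2 fold changes were 0.19 ± 0.40 (95% interval -0.65 to 1.03), 0.12 ± 0.40 (-0.72 to 0.96) and -0.07 ± 0.39 (-0.89 to 0.75), with adjusted p of 0.711, 0.818 and 0.935. No difference was called, and the intervals span 0 and reach 1.03. Ryr2 made up 45.7% to 87.6% of the 3 ryanodine receptors per exon length in iBAT, 5.11% to 36.7% in eWAT and 0.284% to 51.7% in iWAT, and its share was higher in iBAT than in both iWAT and eWAT in 6 of 6 mice (exact sign-flip p = 0.03125, adjusted 0.0938, for both). The share moved with Ryr1, the skeletal muscle receptor, at 0.0617 to 0.580 CPM in iBAT, 0.453 to 133.5 CPM in iWAT and 1.18 to 2.02 CPM in eWAT, and with Ryr3 in eWAT ko 3 (10.3 CPM). In iBAT wt 3 Ryr1 made up 54.3%, and the Ryr2 share of the other 5 iBAT libraries was 54.1% or more. The iBAT shares rest on only 9 to 22 counts per library over the 3 receptors. The highest Ryr2 level of eWAT was in ko 2, the library with the smooth muscle markers, whose part in it was not tested.

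Of 31 further calcium genes (pumps, channels, the mitochondrial uniporter complex and regulators), 28 were tested, with 8 higher and 9 lower in iBAT than in iWAT and 7 and 7 against eWAT, shares near the 54.3% and 54.6% of all genes. The median log2 fold change was -0.42 against iWAT and -0.20 against eWAT. The inositol trisphosphate receptors Itpr2 (2.65 ± 0.17 against iWAT) and Itpr1 (1.40 ± 0.10), which release calcium from the endoplasmic reticulum, were higher in iBAT, as was Smdt1 (1.21 ± 0.12), a subunit of the mitochondrial uniporter. Itpr2 stood at 159.4 to 217.9 CPM in iBAT and 21.6 to 49.2 CPM in the white tissues, and Itpr1 at 107.0 to 143.6 CPM and 34.1 to 50.8 CPM. The plasma membrane pumps Atp2b4 (-2.93 ± 0.25) and Atp2b1 (-1.04 ± 0.16) and the mitochondrial exchanger Slc8b1 (-1.10 ± 0.26) were lower. Fkbp1b, which binds Ryr2, was lower in iBAT than in eWAT (-2.38 ± 0.45). Between iWAT and eWAT, Stim1, the sensor of store calcium (-0.72 ± 0.13), Atp2b4 (-0.81 ± 0.23) and the calcium buffer Casq2 (-1.42 ± 0.41) were lower in iWAT.

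Gk, glycerol kinase, was higher in iBAT than in iWAT. It was at 258.8, 220.7 and 127.8 CPM in wt and 372.9, 168.1 and 80.2 CPM in ko iBAT, and at 6.83, 17.4 and 7.86 CPM in wt and 10.2, 10.96 and 9.73 CPM in ko iWAT. In eWAT it was at 42.8, 5.95 and 8.13 CPM in wt and 6.76, 7.67 and 193.6 CPM in ko. The iBAT and iWAT libraries were apart, and 4 of the 6 eWAT libraries lay in or just below the iWAT range, whereas eWAT ko 3, the library with epididymis and testis markers, lay among the iBAT libraries. The log2 fold change against iWAT was 4.28 ± 0.84 (adjusted p = 0.000397, a 19.4-fold level). Against eWAT it was 2.39 ± 0.78 (adjusted p = 0.0162), 4.08 (adjusted p = 5.03e-05) without ko replicate 3 and 4.84 (adjusted p = 7.5e-07) without the 5 libraries iWAT wt 3, ko 1 and ko 2 and eWAT wt 1 and ko 3. It did not pass without wt replicate 2 (2.11, adjusted p = 0.0508), without ko replicate 1 (2.04, adjusted p = 0.0708) or in ko libraries only (1.58, adjusted p = 0.322). Between iWAT and eWAT it was -1.89 ± 0.78 (adjusted p = 0.137), and 0.65 (adjusted p = 0.450) without those 5 libraries. Gk2, a testis paralog with which reads could be shared, held 19 counts in eWAT ko 3 and at most 1 elsewhere, against 3922 counts of Gk in that library. Of the glycerol kinases per exon length, Gk made up 91.0% to 99.1% in iBAT libraries, while iWAT had 61.6% to 78.9% and eWAT 52.9% to 93.4%. Gk5, a more distant paralog, was at 3.90 to 8.67 CPM in iBAT and 4.09 to 14.96 CPM in the white tissues and was not called between tissues. Over the 18 libraries the levels most like those of Gk were those of Txnrd1, Slc11a2 (both r = 0.98) and Aig1 (r = 0.96).

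Of 20 further genes of glycerol and triglyceride handling, 17 were tested, with 7 higher and 1 lower in iBAT than in iWAT and 8 higher and 2 lower than in eWAT, beside 54.3% and 54.6% of all genes, and with medians of 0.69 and 0.65. Gpd1, the cytosolic glycerol 3-phosphate dehydrogenase, can form glycerol 3-phosphate, also the product of Gk, from dihydroxyacetone phosphate. The mitochondrial enzyme Gpd2 oxidises glycerol 3-phosphate. Gpd2 was at 960.3 to 1625 CPM in iBAT, 43.7 to 162 CPM in iWAT and 26.7 to 61.4 CPM in eWAT, a log2 fold change of 3.56 ± 0.29 against iWAT and 4.79 ± 0.31 against eWAT. Gpd1 was at 8076 to 14749 CPM in iBAT, 399 to 2603 CPM in iWAT and 182 to 928 CPM in eWAT (4.22 ± 0.46 against eWAT). The acyltransferases Gpat4 (1.60 ± 0.17) and Gpam (1.74 ± 0.21) were higher in iBAT than in iWAT, and Gpat3, an acyltransferase for the same step, was lower (-2.90 ± 0.27). Aqp9, a glycerol channel, was lower in iBAT than in eWAT (-6.32 ± 1.21), with 86.7 CPM in eWAT ko 3 and 1.31 to 8.94 CPM in the other eWAT libraries. Between the white tissues, Gpd2 (1.23 ± 0.27) and Gpd1 (1.42 ± 0.41) were higher in iWAT.

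Set side by side per kilobase of exon, the order of mean levels in iBAT was Atp2a2 (40.3 ± 9.73 CPM per kb, SD, n = 6), Gk (26.4 ± 13.4), Ckb (12.7 ± 2.23), Alpl (8.28 ± 1.44), Slc6a8 (6.87 ± 1.26), Gamt (5.54 ± 1.28) and Gatm (2.13 ± 0.715), with Ckmt2, Ryr2 and Ckmt1 under 0.06. Neighbours in this order overlapped in range except Ckb with Alpl, Gamt with Gatm and Gatm with Ckmt2. In iWAT the order was Atp2a2 (24.5 ± 4.76), Ckb (15.2 ± 2.27), Gamt (12.0 ± 4.43), Gatm (6.13 ± 1.91), Slc6a8 (3.68 ± 1.05), Alpl (1.77 ± 0.604) and Gk (1.36 ± 0.480), and all these neighbours overlapped. In eWAT Ckb (27.0 ± 14.4), Atp2a2 (26.8 ± 2.97) and Gamt (23.8 ± 13.4) were close together and overlapped in range. The lengths merge the exons of all transcripts of a gene. The longest transcript has 4340 against 7743 merged bases for Gk, 988 against 1444 for Gamt and 5674 against 6081 for Atp2a2. The lead of Atp2a2 over Gk in iBAT and the place of Gamt in eWAT thus depend on the length used.

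Ucp1 was set beside the 10 genes within tissues, since these cycles are described as independent of it. Ucp1 was at 3411 to 7970 CPM in iBAT, 0.0986 to 55.1 CPM in iWAT and 0 to 1.33 CPM in eWAT. Among the 6 iWAT libraries no gene passed (10 relations, permutation test on log2(CPM + 0.1)), and the strongest was Gk with r = 0.75 (exact permutation p = 0.0528, adjusted 0.528; rho = 0.77, exact permutation p = 0.103). Among the 6 iBAT libraries, examined after seeing the data, Gk was higher with more Ucp1 (r = 0.97, rho = 0.94) and Slc6a8 lower (r = -0.98, rho = -1). Ucp1 was at 6645, 5327 and 3966 CPM in wt and 7970, 5643 and 3411 CPM in ko replicates 1, 2 and 3, and so had the same order by replicate number in both genotypes. Gk had that order too, and Slc6a8 the reverse. The sum of the 10 brown adipocyte markers, Ucp1 among them, did so too, at 11810, 9714 and 7920 CPM in wt and 12889, 11049 and 7417 CPM in ko. The labels do not say which mice shared a litter or a day, so the 6 libraries may not be independent, and the r values are given as a description without a p. Depth and TMM scale are also shared by both axes. Without the 2 libraries furthest from the median of Ucp1, r was 0.89 and -0.97 over 4 libraries, and for the other 8 genes it lay between -0.57 for Ckmt2 and 0.85 for Ryr2 over all 6.

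**Figure D4:**
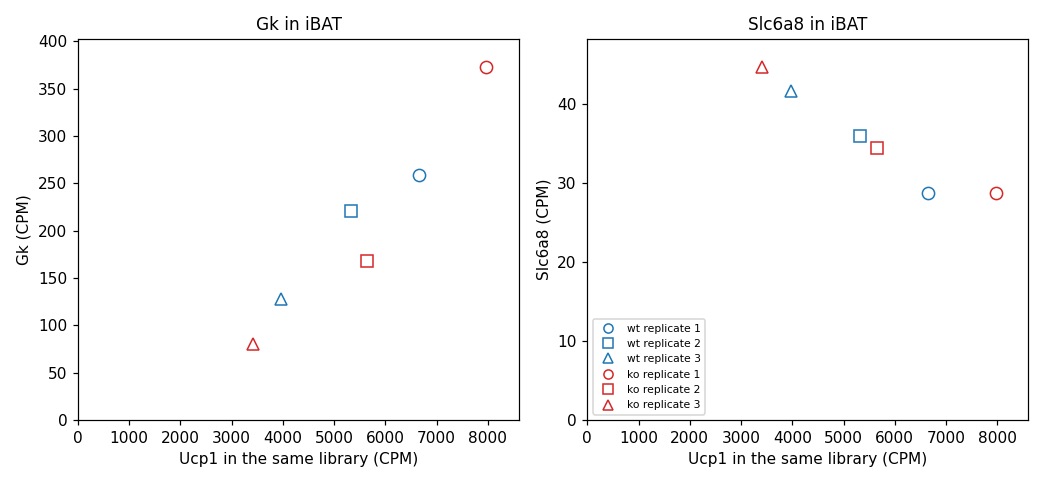
Gk (left, y axis, CPM) and Slc6a8 (right, y axis, CPM) against Ucp1 (x axis, CPM) in the 6 iBAT libraries, wt in blue and ko in red, with a symbol for each replicate number. Gk runs from 80.2 to 372.9 CPM upward with Ucp1, and Slc6a8 from 44.7 down to 28.8 CPM, with wt and ko on the same course.

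The genotype comparison asked whether loss of Gm15551 alters these genes. None of the 9 tested genes was called across tissues (background 0.00534% of genes called), within iBAT (0%), within iWAT (0%), within eWAT (0.00534%) or for the interaction of genotype with tissue (0%), by edgeR. At an unadjusted edgeR p under 0.05 there was 1 of 9 across tissues, 0 in iBAT, 1 in iWAT, 2 in eWAT and 1 for the interaction. Over all 18728 genes tested, the counts at that level were 411, 238, 415, 814 and 264. DESeq2 and limma voom called none of the 9 either in the contrasts in which they were run. Across tissues, counts summed per mouse also called none of the 9. Across tissues the log2 fold changes of the 8 genes other than Ckmt1 lay between -0.21 ± 0.20 for Ckb and 0.60 ± 0.63 for Gk. That fit had no term for the mouse and took the 9 wt and 9 ko libraries as separate, though they come from 3 mice per genotype. Its SE, intervals and p values do not allow for this. The 95% intervals were -0.19 to 0.36 for Atp2a2, -0.30 to 0.50 for Slc6a8, -0.31 to 0.50 for Alpl, -0.55 to 0.42 for Gatm, -0.64 to 0.21 for Ckb, -0.20 to 0.85 for Gamt, -0.39 to 0.97 for Ryr2 and -0.72 to 1.92 for Gk. Ckmt1, at 27 counts over the 9 wt and 91 over the 9 ko libraries, had the smallest p across tissues (log2 fold change 1.83 ± 0.72, edgeR, unadjusted p = 0.0211, adjusted p = 1). Of the ko counts 37 came from eWAT ko 3, the library with epididymis markers, and the log2 fold change ranged from 0.93 to 2.60 on leaving out a mouse.

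Within tissues the wt and ko values did not overlap for 1 of 9 genes in iWAT, against 4.92% of all genes, and for none in iBAT (4.94%) or eWAT (5.25%). That gene was Slc6a8, at 11.5 to 17.6 CPM in wt and 21.3 to 25.9 CPM in ko iWAT, with a log2 fold change of 0.68 ± 0.28 (edgeR, unadjusted p = 0.0286, adjusted p = 1). In eWAT, Ckb was at 65.0 to 158.7 CPM in wt and 36.1 to 71.1 CPM in ko (-0.76 ± 0.32, edgeR unadjusted p = 0.0286, adjusted p = 1), where the highest wt library was wt 1 and the lowest ko library ko 3. Gamt was at 20.8 to 26.0 CPM in wt and 25.0 to 71.3 CPM in ko eWAT (0.97 ± 0.40, edgeR unadjusted p = 0.0290, adjusted p = 1), with its highest value in eWAT ko 3. For Slc6a8 the interaction of genotype with tissue gave an unadjusted edgeR p of 0.0472 (adjusted p = 1).

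**Figure D5:**
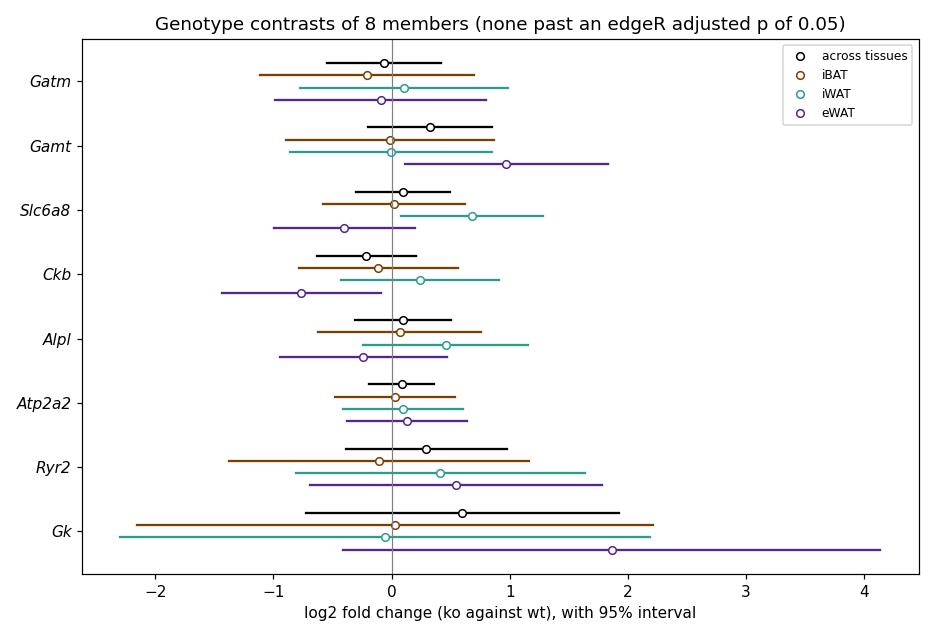
Log2 fold change of ko against wt (x axis) for 8 genes (y axis) across tissues (black) and within iBAT (brown), iWAT (green) and eWAT (purple), with 95% intervals. No point passes the edgeR threshold, and the intervals are narrowest for Atp2a2 (-0.19 to 0.36 across tissues) and widest for Gk. The fit across tissues takes the libraries of a mouse as separate.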

How the data were processed

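RNA-seq libraries of polyadenylated RNA were made from 3 adipose tissues of 6 mice. Per the labels and methods, the authors trimmed reads with cutadapt and quantified them with Salmon on GRCm38 (GENCODE M22, alone or with RNAcentral, the choice and the strand setting not given in the sources used here). The deposited table holds whole-number estimated counts for each gene, not normalised. Salmon divides reads between similar genes by a model, so paralogs carry some uncertainty.

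Library titles gave the groups, and mouse identifiers in the labels tie the 3 tissues of an animal. A quasi-likelihood model (edgeR 4.0.16, R 4.3.3) was fitted to the 18728 genes kept by filterByExpr, with TMM scaling. Terms for tissue and genotype gave the tissue and overall genotype contrasts, and a mean per group gave the genotype contrasts within tissues and the interaction. Benjamini-Hochberg adjustment ran over all of these genes at a threshold of 0.05. Standard errors (SE) were taken as the log2 fold change over the root of its F value. Shares within gene families used counts divided by exon length and exact sign-flip tests over mice, and relations with Ucp1 used log2(CPM + 0.1). Limits of 3 counts cover counting error only, PCR copies not being separate molecules. The fit was tested on simulated counts with known changes.

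The genes, the lists of related genes and the markers were chosen with earlier results of these data known. Named were all 10 genes, their paralogs and SERCA regulators, Ucp1, of each related list up to 3 genes in each direction with the smallest p among those called in a tissue contrast, and for each tested member the 3 genes of highest Pearson r, by log2 CPM and by deviations from tissue means. A gene of the related lists is not reported here. The mouse identifiers pair the tissues, and same-mouse libraries correlated at -0.17 to 0.33 (median 0.057, 18 pairs) after removal of group means. Alternatives were DESeq2 size factors, no filter, a minimum of 10 counts in each library, the DESeq2 1.42.0 test, voom with quality weights in limma 3.58.1, a mouse or replicate block, 1 genotype or 1 tissue only, counts summed per mouse, leaving out each mouse or library, and, added after seeing the data, totals without mitochondrial genes, leaving out 5 libraries that stood apart, the Ucp1 relation in iBAT and shares without the mice of iWAT ko 1 and eWAT ko 3.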

Additional observations from a re-analysis of the deposited data

Results flagged for a closer look

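Among 30 sets of 6 libraries (10 genes in 3 tissues), 7 held a library whose gap to the next was large against the range of the set by Dixon's test. The nominal rate by chance is about 1 in 20, or 1.5 sets. That rate holds for independent sets of normal values. These sets are untransformed CPM, share libraries and include genes near 0 counts, so it is only a rough guide. They fell in 5 libraries. In eWAT wt 1, Ckb was at 158.7 CPM and Slc6a8 at 46.6 CPM, the highest values of each in eWAT. In eWAT ko 3, Gk was at 193.6 CPM and Ckmt1 at 1.83 CPM, again the highest of the tissue. In iWAT ko 1, Ckmt2 was at 6.51 CPM, with 0.0426 CPM as the highest of the other 5 iWAT libraries. In iWAT wt 2, Ckb was at 31.6 CPM, the lowest of the tissue, and in iWAT ko 3, Alpl was at 11.8 CPM, the highest. Epididymis markers summed to 5095 CPM in eWAT ko 3 and 35.4 CPM in eWAT wt 1, and skeletal muscle markers to 4011 CPM in iWAT ko 1, and their part in these values was not tested.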

How the results depend on the processing

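Alpl in both iBAT contrasts, and Gk and Gatm between iBAT and iWAT, were called the same way under each of the 17 alternatives run. Between iBAT and eWAT 6 of 9 genes were called, 4 in wt and 3 in ko libraries only, and between iBAT and iWAT 6, with 4 in ko libraries only, where Gamt (-1.10, adjusted p = 0.0684) and Atp2a2 fell out, as did Ckb against eWAT (-0.70, adjusted p = 0.0529). Between iWAT and eWAT 2 were called, and 1 with DESeq2 size factors, without a filter, with at least 10 counts in every library and without 4 libraries, 0 in wt libraries only and 0 in ko libraries only, 1 to 2 on leaving out a mouse, and 3 with DESeq2, voom, totals without mitochondrial genes or without 5 libraries. All genes called between iBAT and iWAT numbered 10164, and 6595 in wt and 5584 in ko libraries only. Between iBAT and eWAT the counts were 10220, 6574 and 5878. Between iWAT and eWAT there were 1911, with 1149 at 10 or more counts in every library, 2980 by voom, 247 in wt and 123 in ko libraries only, and 750 to 1595 on leaving out a mouse. Across tissues 1 gene was called between genotypes, 0 at 10 or more counts or with counts summed per mouse, 4 by DESeq2, 2 by voom, 2 without 5 libraries and 3 with the replicate number as a block. Within iBAT 0 were called and 14 by DESeq2. Within iWAT 0 were called, 4 by DESeq2, 1 without a filter, 1 with totals without mitochondrial genes and 0 to 1 on leaving out a library. Within eWAT 1 was called, 10 by DESeq2 and 0 at 10 or more counts, with the replicate number as a block, with eWAT libraries only or on leaving out any library.

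Directions of values past no threshold turned as follows. With totals without mitochondrial genes, Ryr2 was -0.33 against iWAT and -0.40 against eWAT in iBAT, and Slc6a8 -0.056 against eWAT. In ko libraries only, Ryr2 was -0.065 and -0.20 in those contrasts and Slc6a8 0.068 between iWAT and eWAT. In wt libraries only, Ryr2 was 0.011 between iWAT and eWAT. With voom, Ryr2 was -0.17 between iBAT and eWAT, Gk 0.25 and Atp2a2 0.013 between iWAT and eWAT, and between genotypes Gk was -0.27, Gatm 0.055 and Atp2a2 -0.023. Without 4 libraries, Ryr2 was 0.16 between iWAT and eWAT, and between genotypes Slc6a8 was -0.012, Gk -0.50 and Atp2a2 -0.048. Without 5 libraries, Ckmt1 was 0.36, Ryr2 0.034 and Gk 0.65 between iWAT and eWAT, and between genotypes Gamt was -0.0043, Gk -0.037 and Atp2a2 -0.023. Leaving out a mouse gave ranges of -0.016 to 0.56 for Ryr2 between iBAT and iWAT, -0.21 to 0.39 for Ryr2 and -0.43 to 0.060 for Gatm between iBAT and eWAT, and -0.25 to 0.18 for Ryr2 between iWAT and eWAT. Between genotypes the ranges were -0.34 to 0.048 for Ckb, -0.27 to 0.87 for Gk, -0.24 to 0.11 for Gatm, -0.12 to 0.29 for Alpl and -0.055 to 0.16 for Atp2a2.

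The Ckb share differed by 13.4 points between iBAT and iWAT (-1.37 to 17.96 on leaving out a mouse, -1.92 without the mice of iWAT ko 1 and eWAT ko 3), by -1.20 (-2.43 to 0.489) between iBAT and eWAT and by -14.6 (-18.4 to 0.505) between iWAT and eWAT. The Ryr2 share differed by 4.36 points (-3.05 to 9.20, -0.481 without those mice) and the Gk share by 0.441 (-4.67 to 6.30) between iWAT and eWAT. Without the 2 libraries furthest from the median of Ucp1 in iWAT, r turned to -0.98 for Gamt, -0.63 for Atp2a2 and 0.52 for Ryr2. The causes were not tested.

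The mouse as a block changed no call of the 10 genes. Same-numbered wt and ko libraries correlated at -0.47 to 0.55 over 9 pairs, 4 of them over 0.1, so a pairing of the genotypes by number was not established. At 7 to 52 counts for Ryr2 and 0 to 37 for Ckmt1, depth limits both genes.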

Other observations

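Levels of other genes ran beside those of the creatine and calcium genes over the 18 libraries, given as descriptions of shared tissue differences and shared libraries. Those most like Ckb were Ift57 (Pearson r = 0.91), Pkdcc (r = 0.88) and Tpst2 (r = 0.86). For Gamt they were Magee1 (r = 0.95), Elmo3 and Atp1a4 (both r = 0.94). Slc6a8 was nearest to Agbl2, Myh14 (both r = 0.88) and Mmd2 (r = 0.87), and Atp2a2 to Xpot (r = 0.96), Fam120a and Irgq (both r = 0.94). Krt18, a keratin of simple epithelia, was nearest to Ckmt1 (r = 0.90), followed by Tfcp2l1 and Ntf5 (both r = 0.89). Ryr2 reached no more than r = 0.72, with Dancr, followed by Gm10193 (r = 0.69) and 4833422M21Rik (r = 0.67).

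After removal of the tissue means, Agbl2 (r = 0.86) and Mmd2 (r = 0.86) were again among the 3 genes nearest to Slc6a8, after Ccdc157 (r = 0.89). Xpot (r = 0.91) was again among those nearest to Atp2a2, after Alg11 (r = 0.93) and Ammecr1l (r = 0.91), as was Txnrd1 (r = 0.93) for Gk, after Ankrd54 and Pdzk1ip1 (both r = 0.93). Ddo (r = 0.79) was again among those nearest to Alpl, between Eps8l2 (r = 0.82) and Traf3ip1 (r = 0.79), and Krt18 (r = 0.86) was again nearest to Ckmt1, with Lrrc26 and Tfcp2l1 (both r = 0.85) next. For the remaining 4 genes the 3 nearest changed, to Tmem37 (r = 0.91), Fbp2 and Slc25a15 (both r = 0.85) for Ckb, Ptpn9 (r = 0.86), Fa2h (r = 0.85) and Tbx15 (r = 0.79) for Gatm, Ptges (r = 0.90), Rpn2 and Ap3s2 (both r = 0.89) for Gamt, and Gm10941 (r = 0.75), Hdac4 (r = 0.74) and Srsf6 (r = 0.73) for Ryr2.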
